A study of Mus musculus with 18 samples.

Results

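The natriuretic peptide system was followed through 8 genes, Nppa, Nppb, Nppc, Npr1, Npr2, Npr3, Corin and Furin, chosen by name and matched by Ensembl identifier among the 38355 genes counted in mouse left ventricle. Of these 8 genes, 7 had enough reads to be tested, and Nppc did not. Nppa and Nppb encode the precursors of atrial and B-type natriuretic peptide, hormones that heart muscle cells release when they are stretched or loaded. Nppc encodes the precursor of C-type natriuretic peptide, which is made mainly by endothelial cells. Corin is a membrane-bound serine protease of heart muscle that cuts the atrial peptide precursor into its active form, and furin is a convertase of the secretory pathway that cuts the other precursors. Npr1 and Npr2 are receptors with a guanylyl cyclase inside the cell, Npr1 for the atrial and B-type peptides and Npr2 for the C-type peptide, and both make cyclic GMP. Npr3 has no cyclase domain and takes all of these peptides out of the circulation. In the healthy adult ventricle Nppa and Nppb are low, and their return is a textbook mark of a loaded ventricle.

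RNA-seq had been done on 18 libraries of left ventricular myocardium from mice on a (DBA/2J x C3HeB/FeJ)F1 background. There were 5 libraries of WT mice without surgery and 13 libraries labelled as MHC-cycD2 transgenic mice, in which a myosin heavy chain promoter drives cyclin D2, a cell cycle protein, in heart muscle. The libraries labelled transgenic were 5 after sham surgery (cycD2 sham), 3 after transverse aortic constriction, which loads the ventricle with pressure (cycD2 TAC, replicates 1, 2 and 4), and 5 after an aortocaval shunt, which loads it with volume (cycD2 Shunt). Surgery was done at 8 weeks of age. The time from surgery to sampling, the kind of sham procedure and the sex of each mouse are not given in the sources used here. No operated WT group was analysed here, so each effect of surgery is one in transgenic hearts, and cycD2 sham against WT combines the transgene with the sham procedure. Libraries of a group carry only replicate numbers, so p-values measure the spread between libraries, which may be in part technical.

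Libraries held 19297821 to 30594075 reads counted in genes, and no pair of libraries in a group agreed within sampling noise. Among reads placed in genes, outside them or ambiguous between them, those outside genes made up 19% to 22.8% in WT against 14.9% to 17.9% in sham. When multiply aligned reads are added to that total, they made up 43.1% to 45.9% of it in WT against 39.1% to 41.9% in sham. These shares did not overlap between WT and sham, they move with every difference between these groups, and their part in it was not tested. Ventricular muscle markers (6 genes such as Myl2 and Tnni3) summed to between 48235 and 85423 CPM, which are read counts scaled to a common library size, in all 18 libraries, against at most 806 CPM for 7 atrial markers and at most 6.98 CPM for 6 adipocyte markers. Transgene RNA, read as Ccnd2, was at 14.11 to 14.90 log2 CPM in 12 of the 13 libraries labelled transgenic and at 7.14 to 7.56 in WT. With 7.83, the library labelled cycD2 TAC replicate 2 stood near WT and goes against its label. Calls and counts that rest on the TAC group are also given without it where they change. Ddx3y, a Y-linked gene, was read in WT, cycD2 sham and TAC replicate 4, and Xist in TAC replicates 1 and 2 and all Shunt libraries, so sex and Shunt cannot be told apart. Only TAC held libraries of both kinds, so any fit with a covariate for Y-linked genes rests mainly on the TAC libraries. Of the circadian clock genes, Arntl exceeded Dbp in each TAC library, in sham replicates 1 and 2 and in WT replicates 1, 2 and 3. Dbp exceeded Arntl in the other libraries, all of Shunt among them.

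Nppb and Nppa are neighbours on chromosome 4, both on the plus strand, Nppb at chr4:147985788-147987205 and Nppa at chr4:148000722-148002079 (GRCm38), with 13516 bases between them. Their promoters are printed because these 2 genes had the widest ranges of level among the members. Each sequence is the 250 bases before the RefSeq start site (GRCm38.p6), 5′ to 3′ on the gene's strand, with capitals for 4 motifs searched on both strands. These were GATA, the core of the GATA factor site, then AAGTG, a site of Nkx2-5, then CATTCC, the site of TEAD factors, and TATAAA, the core of the TATA box.
Nppa, chr4:148000472-148000721: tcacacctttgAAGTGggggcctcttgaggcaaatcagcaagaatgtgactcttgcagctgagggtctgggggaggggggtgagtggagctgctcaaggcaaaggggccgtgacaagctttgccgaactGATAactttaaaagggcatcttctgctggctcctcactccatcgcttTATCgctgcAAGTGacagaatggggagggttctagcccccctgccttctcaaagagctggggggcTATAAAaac
Nppb, chr4:147985650-147985899: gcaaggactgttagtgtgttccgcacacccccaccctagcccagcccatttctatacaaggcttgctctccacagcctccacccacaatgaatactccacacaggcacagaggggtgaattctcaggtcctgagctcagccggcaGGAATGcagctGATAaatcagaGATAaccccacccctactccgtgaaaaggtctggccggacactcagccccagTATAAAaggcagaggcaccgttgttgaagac
Positions count back from -1, the base before the start. The Nppa window held GATA at -121 to -118 on the plus strand and at -74 to -71 on the minus strand, AAGTG at -239 to -235 and at -65 to -61, and TATAAA at -9 to -4. The Nppb window held GATA at -94 to -91 and at -83 to -80, CATTCC on the minus strand at -105 to -100, and TATAAA at -31 to -26. No 2 of these matches overlapped. Over 32851 promoters of the same length, GATA was found in 53.6%, AAGTG in 40.7%, CATTCC in 12.6% and TATAAA in 12.4%. The CArG box of serum response factor was searched only as CCWWWWWWGG, with W for A or T. This exact pattern was found in 1.47% of them and had no match in either window. Sites that depart from it were not searched for. The RefSeq start of Nppb lies 112 bases inside the first exon of the GENCODE gene, and for Nppa both annotations start at the same base.

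Nppa was the member with the widest range. It fell in cycD2 sham against WT and rose 76.5-fold from sham to TAC, while Shunt libraries were split into high and low ones. WT libraries 1 to 5 had 347, 129, 127, 170 and 310 CPM of Nppa. The 5 sham libraries lay between 36.5 and 53.0 CPM, all below the lowest WT library. TAC replicates 1, 2 and 4 had 3681, 4686 and 2042 CPM, each above every other library of the series. Shunt replicates 1 and 5, with 330 and 222 CPM, lay in the WT range, and Shunt replicates 2, 3 and 4, with 53.5, 25.6 and 45.6 CPM, lay at the level of sham. Group means were 216 ± 104 (SD, n = 5) in WT, 45.4 ± 6.88 (n = 5) in sham, 3470 ± 1335 (n = 3) in TAC and 135 ± 134 (n = 5) in Shunt.

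Tests were made with edgeR's quasi-likelihood F-test over all 18 libraries and 14876 genes, and a gene was called where the Benjamini-Hochberg adjusted p was under 0.05. Nppa fell by 2.25 on the log2 scale from WT to sham (SE 0.61, adjusted p = 0.0123). In bulk tissue, fewer cells of a type and less RNA per cell cannot be told apart. In TAC Nppa rose from sham by 6.26 (SE 0.74, adjusted p = 4.67e-05), and without TAC replicate 2 by 5.96 (adjusted p = 0.000246). TAC was 16-fold above WT (log2 4.00, adjusted p = 0.000411). Shunt against sham missed the threshold at log2 1.58 (95% interval 0.31 to 2.85, unadjusted p = 0.0182, adjusted p = 0.250), or 0.94 without Shunt replicate 1 (adjusted p = 0.455), and so did Shunt against WT at -0.68 (-1.91 to 0.56, adjusted p = 0.400). From TAC to Shunt Nppa dropped by 4.68 (adjusted p = 0.00033), or by 5.32 without Shunt replicate 1. The order of the groups was therefore TAC, WT, Shunt and sham, with neither WT and Shunt nor Shunt and sham separated beyond their spread.

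Nppb, the next gene on the chromosome, had the same order of group means. Within Shunt the same libraries were high for both genes, and within WT, sham and TAC the highest library differed between them. WT libraries 1 to 5 had 236, 253, 173, 64.2 and 160 CPM of Nppb, and sham libraries 61.4, 42.8, 16, 16 and 13 CPM. The lowest WT library, replicate 4, lay just above the highest sham library. TAC replicates 1, 2 and 4 had 1428, 850 and 541 CPM, each above every library outside TAC. Shunt libraries 1 to 5 had 138, 34.8, 8.08, 16.7 and 80.0 CPM, and replicates 1 and 5 were the high ones, as they were for Nppa. Group means were 177 ± 74.5 CPM in WT, 29.8 ± 21.4 in sham, 940 ± 451 in TAC and 55.5 ± 53.8 in Shunt.

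Nppb fell by 2.57 from WT to sham on the log2 scale (SE 0.71, adjusted p = 0.0137) and rose by 4.98 from sham to TAC (SE 0.81, adjusted p = 0.000403), which is 31.5-fold. Without TAC replicate 2 the rise was 5.03 (adjusted p = 0.00153). TAC was 5.31-fold above WT (log2 2.41, adjusted p = 0.0221), a call that ended without TAC replicate 1 (1.97, adjusted p = 0.104). Shunt against sham gave 0.89 (95% interval -0.55 to 2.34, adjusted p = 0.581), or 0.23 without Shunt replicate 1 (adjusted p = 0.92) and 1.87 among libraries with Dbp above Arntl (adjusted p = 0.342), and TAC to Shunt a drop of 4.08 (adjusted p = 0.00166), or 4.75 without Shunt replicate 1. Shunt against WT, at -1.68, missed the threshold (adjusted p = 0.0724) and passed it without Shunt replicate 1 (-2.34, adjusted p = 0.0188).

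**Figure D1:**
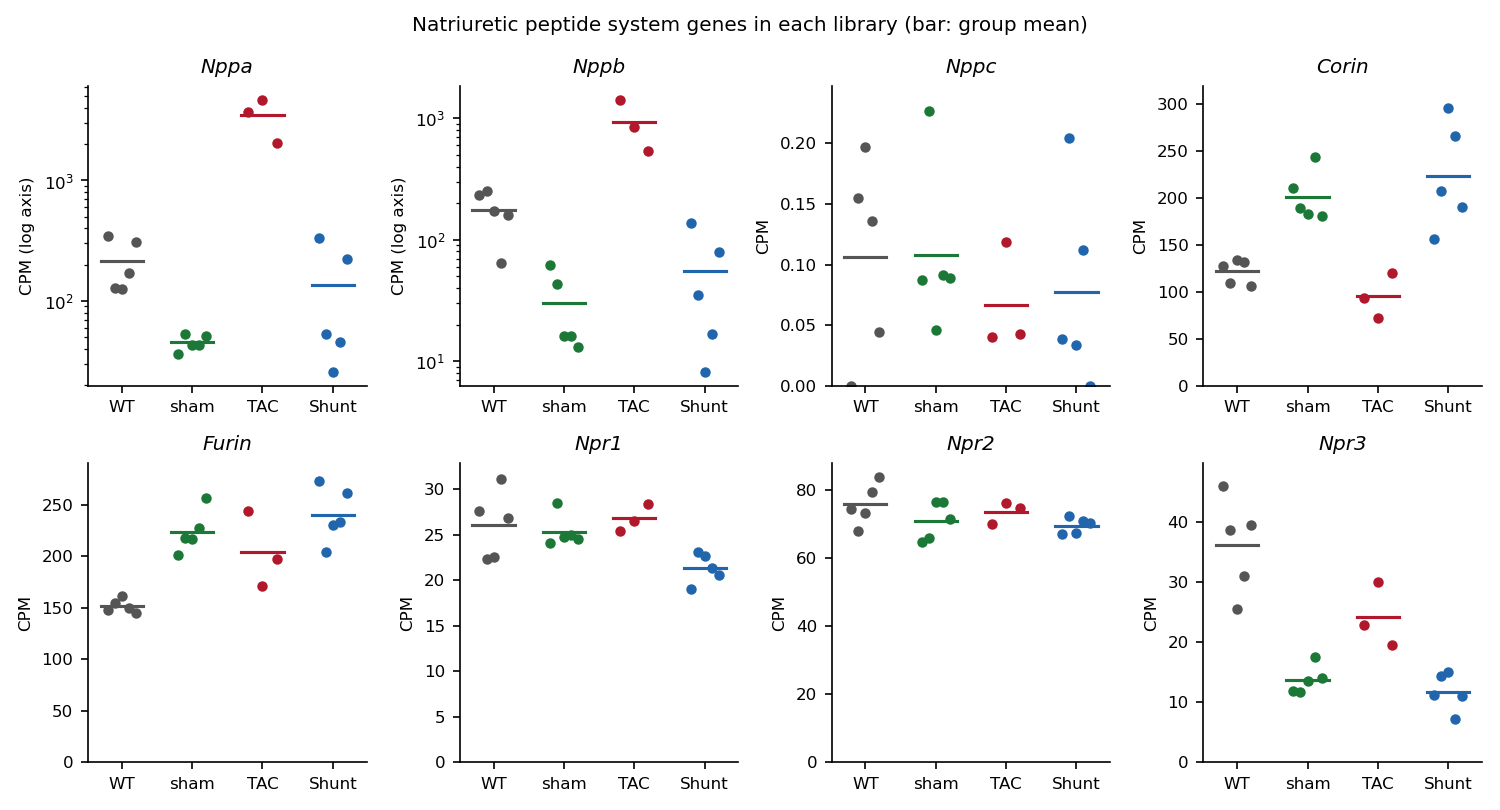
Level of each of the 8 genes in each library in CPM, with Nppa and Nppb on log axes, points in replicate order within each of the 4 groups, and a bar for the group mean. The 3 TAC libraries stand above all others for Nppa (2042 to 4686 CPM) and Nppb (541 to 1428 CPM), and sham and Shunt lie below WT for Npr3.

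The ratio of Nppa to Nppb CPM had its highest median in TAC (3.78) and its lowest in WT (1.47), and the 4 ranges overlapped. It lay between 2.58 and 5.51 in TAC, 0.509 and 2.66 in WT, 0.595 and 3.98 in sham and 1.54 and 3.17 in Shunt. The level of Nppa against other genes, and with it this ratio, is uncertain because most of its exon bases overlap the antisense gene Gm13054. Per kilobase of exon, with that limit, mean Nppa was 250, 52.4, 4011 and 157 CPM per kb in WT, sham, TAC and Shunt. Mean Nppb was 227, 38.2, 1203 and 71.0 CPM per kb in the same order. Nppb also differed with the clock genes within a group. In sham it was 42.8 and 61.4 CPM in the libraries with Arntl above Dbp and 13 to 16 CPM in the other 3, and in WT it was 173 to 253 CPM against 64.2 and 160 CPM. The part of the clock phase in these differences was not tested.

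Both peptide genes kept their direction from WT to sham when the libraries were split by clock phase, but the calls did not all hold. Among libraries with Arntl above Dbp, Nppa differed by -2.15 (adjusted p = 0.0699) and Nppb by -2.07 (adjusted p = 0.0321). Among those with Dbp above Arntl, Nppa differed by -2.38 (adjusted p = 0.187) and Nppb by -2.89 (adjusted p = 0.132). Between sham and TAC, with Arntl above Dbp in all, the differences were 6.28 for Nppa (adjusted p = 0.00586) and 4.17 for Nppb (adjusted p = 0.00414). TAC and Shunt had no phase in common, so phase and group cannot be told apart there.

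Atrial muscle makes Nppa in quantity, so the atrial marker Myl7, the atrial myosin light chain, was read beside it. It was at 173 and 319 CPM in sham replicates 2 and 5, at 111 and 152 in TAC replicates 2 and 4, at 84.9 and 204 in Shunt replicates 2 and 4, and at most 11.5 CPM in the other libraries. TAC replicate 1 had 3681 CPM of Nppa with Myl7 at 1.72 CPM, and WT replicate 5 had 310 CPM of Nppa with Myl7 at 0.267 CPM. The 7 atrial markers summed to 19.2 to 47.4 CPM in WT, 87.1 to 806 in sham, 57.8 to 404 in TAC and 65.4 to 533 in Shunt. From WT to sham 4 of the 6 atrial markers tested rose, where 13.5% of all genes rose. With Myl7 as a covariate the fall from WT to sham was -1.65 for Nppa (adjusted p = 0.147) and -2.26 for Nppb (adjusted p = 0.0683), and both calls ended. The SE for Nppa was then 0.783, against 0.607 without the covariate. Myl7 reached 8.09 CPM in WT and 319 CPM in sham, so this covariate is partly tied to group. The part of atrial tissue in the Nppa levels was not tested.

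**Figure D2:**
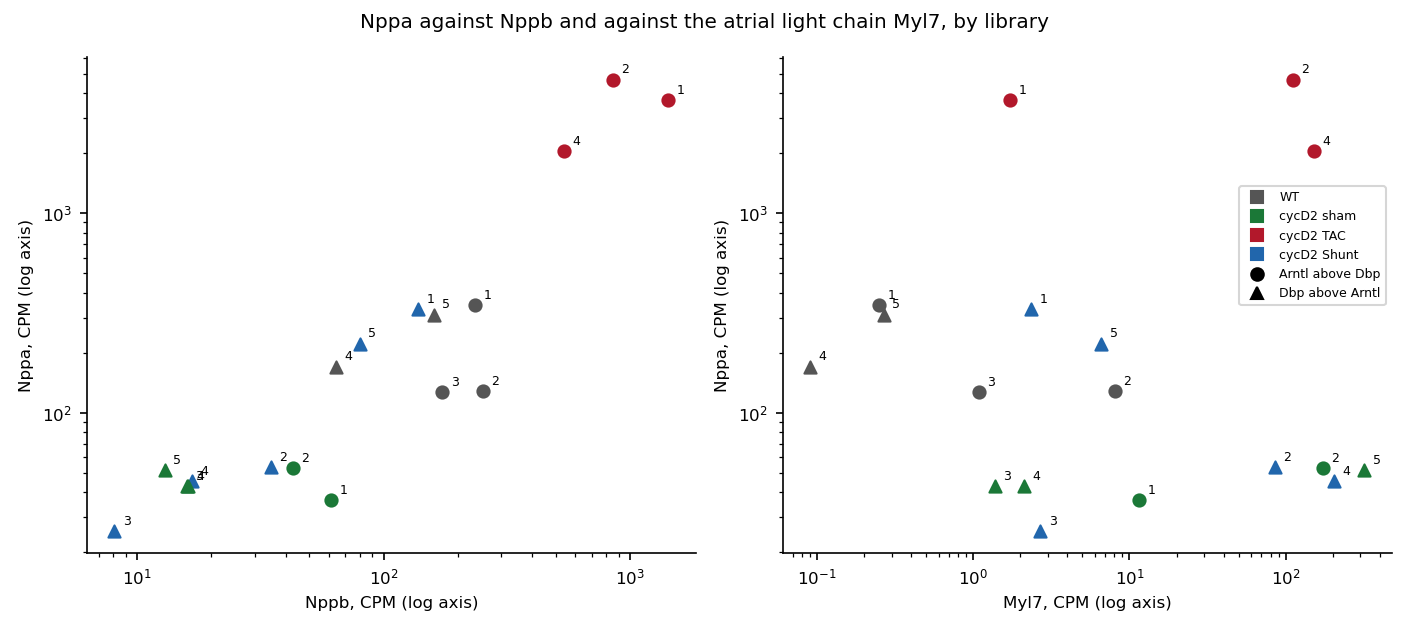
Nppa in CPM against Nppb (left) and against Myl7 (right) in each library, all on log axes, coloured by group, with circles where Arntl stood above Dbp, triangles where Dbp stood above Arntl, and replicate numbers beside the points. TAC replicate 1 has 3681 CPM of Nppa at 1.72 CPM of Myl7, and Shunt replicates 1 and 5 lie among WT in the left panel.

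Part of the Nppa exons also carries an antisense gene. Gm13054, on the minus strand at chr4:148001091-148004014, shares 532 of the 865 exon bases of Nppa (61.5%). It had 2 to 285 counts, 0.151% to 0.478% of the Nppa counts of the same library, and rose with Nppa from sham to TAC (log2 5.70, SE 0.65, adjusted p = 1.8e-05). TAC replicates 1, 2 and 4 had 11.4, 7.06 and 6.48 CPM of Gm13054, against 0.067 to 1.58 CPM elsewhere. The library kit does not mark strand, so reads of Nppa and Gm13054 cannot be told apart where they overlap. Reads set aside as ambiguous between genes came to 2.29%, 2.59% and 2.14% of gene counts in TAC replicates 1, 2 and 4, the same order as Nppa, and to 1.8% to 1.96% in the other 15 libraries. The level of Nppa against other genes is uncertain for that reason.

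Nppc was close to the limit of detection in every library, with 0 to 6 counts each. Its mean was 0.102 CPM per kb in WT, 0.104 in sham, 0.0644 in TAC and 0.0744 in Shunt. At this depth a difference between groups was not detectable, and no fold change is given for Nppc.

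The processing enzymes moved in other ways than the peptides they cut. Corin, the protease for the atrial peptide precursor, was higher in sham and Shunt than in WT and lowest in TAC. WT libraries had 128, 109, 134, 132 and 107 CPM of Corin, and sham libraries 210, 190, 184, 244 and 181 CPM, with every sham library above every WT library. TAC replicates 1, 2 and 4 had 94.1, 71.9 and 120 CPM, all below the lowest sham library and overlapping the WT range. Shunt libraries had 156, 208, 296, 266 and 190 CPM, each above the highest WT library. Group means were 122 ± 13 CPM in WT, 202 ± 26.2 in sham, 95.3 ± 24.0 in TAC and 223 ± 56.9 in Shunt.

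Corin rose by 0.73 from WT to sham on the log2 scale (SE 0.16, adjusted p = 0.00272) and fell by 1.08 from sham to TAC (SE 0.19, adjusted p = 0.000455), or by 0.93 without TAC replicate 2 (adjusted p = 0.00426). From TAC to Shunt Corin rose by 1.23 (adjusted p = 0.000281), and Shunt stood above WT by 0.87 (adjusted p = 0.000525). Shunt against sham gave 0.15 (95% interval -0.19 to 0.48, adjusted p = 0.715), and TAC against WT -0.36 (-0.75 to 0.03, adjusted p = 0.15). Within the clock phases the rise from WT to sham was 0.71 (adjusted p = 0.0512) and 0.78 (adjusted p = 0.0836). With a covariate for Y-linked genes the fall from sham to TAC was -0.78 and no longer called (adjusted p = 0.134). Ventricular muscle markers were read beside Corin as a gene of heart muscle. Of these, 3 of 6 fell from sham to TAC (2 of 6 without TAC replicate 2) and 1 of 6 rose from WT to sham. Of all genes, 14.5% fell from sham to TAC and 13.5% rose from WT to sham. Without TAC replicate 2, 21.7% were called from sham to TAC in either direction. Counts over 6 genes are not read as differing from these shares. The markers summed to 60209.6 to 72063.9 CPM in WT and 74706.5 to 85422.6 in sham, with no overlap, the same direction as Corin. The sums were 48235.3 to 77372.9 CPM in TAC, overlapping sham and WT. In Shunt they were 63360.8 to 73004.8 CPM, overlapping WT and below sham, unlike Corin. The part of these markers in the Corin result was not tested.

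Furin, which is made in most cell types, rose in sham against WT and was not called between sham and TAC. WT libraries lay between 145 and 162 CPM of Furin, sham libraries between 201 and 257, TAC libraries at 244, 171 and 197, and Shunt libraries between 204 and 273. All 13 libraries labelled cycD2, TAC replicate 2 included, were above the highest WT library. Means were 152 ± 6.64 CPM in WT, 224 ± 20.6 in sham, 204 ± 36.7 in TAC and 241 ± 27.3 in Shunt. Furin rose by 0.56 from WT to sham (SE 0.09, adjusted p = 0.000259), stood above WT by 0.67 in Shunt (adjusted p = 3.99e-05), and stood above WT by 0.43 in TAC (adjusted p = 0.00405). The last call ended without TAC replicate 1 (0.28, adjusted p = 0.0574). TAC against sham gave -0.13 (95% interval -0.36 to 0.09, adjusted p = 0.365), or -0.04 without TAC replicate 2 (adjusted p = 0.843), Shunt against sham 0.10 (-0.09 to 0.30, adjusted p = 0.648) and Shunt against TAC 0.24 (0.01 to 0.46, adjusted p = 0.108). Without TAC replicate 1 Shunt against TAC was called (0.38, adjusted p = 0.0163). The ratio of Furin to Corin CPM was 1.65 to 2.59 in TAC and 0.934 to 1.42 in sham, with no overlap between these groups. It was 1.13 to 1.41 in WT and 0.78 to 1.75 in Shunt, and Shunt overlapped TAC.

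Among the receptors, Npr3 changed most and the cyclase receptors Npr1 and Npr2 stayed within narrow ranges. WT libraries had 46.0, 38.7, 25.6, 31.0 and 39.4 CPM of Npr3, the gene of the clearance receptor. Sham libraries had 11.8, 11.7, 13.5, 17.5 and 14.1 CPM and Shunt libraries 11.3, 14.4, 15.0, 7.19 and 11.1 CPM, all below every WT library. TAC replicates 1, 2 and 4 had 22.9, 30.1 and 19.5 CPM, between sham and WT and overlapping WT only. Means were 36.1 ± 7.95 CPM in WT, 13.7 ± 2.37 in sham, 24.1 ± 5.41 in TAC and 11.8 ± 3.12 in Shunt.

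Npr3 fell by 1.40 from WT to sham (SE 0.19, adjusted p = 6.86e-05), and the fall was called within both clock phases, at -1.63 (adjusted p = 0.0162) and -1.21 (adjusted p = 0.0137). In TAC Npr3 rose from sham by 0.82 (SE 0.22, adjusted p = 0.00863). That call ended without TAC replicate 2 (0.61, adjusted p = 0.0819) and with a covariate for Y-linked genes (0.47, adjusted p = 0.451). TAC stayed below WT by 0.58 (SE 0.22), just past the threshold (adjusted p = 0.0496), and 15 of the 18 other settings tried ended this call. Shunt was below WT by 1.62 (adjusted p = 1.38e-05) and below TAC by 1.03 (adjusted p = 0.00213), and against sham gave -0.22 (95% interval -0.62 to 0.19, adjusted p = 0.650).

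Endocardial and endothelial cells are known sites of Npr3, and their markers were read beside it. The 4 endocardial markers summed to 77.9 to 139 CPM in WT, 59.1 to 95.7 in sham, 84.4 to 111 in TAC and 50.8 to 87.6 in Shunt, and 2 of 4 fell from WT to sham and 1 of 4 rose from sham to TAC. The 6 endothelial markers summed to 1058 to 1404 CPM in WT, 853 to 1145 in sham, 1166 to 1296 in TAC and 946 to 1082 in Shunt, with 3 of 6 lower in sham than in WT and 4 of 6 higher in TAC than in sham, or 1 of 6 without TAC replicate 2. The 6 fibroblast markers summed to 2016 to 4688 CPM in TAC and 959 to 1624 CPM in sham, and all 6 rose, or 3 of 6 without TAC replicate 2. Of all genes, 14.9% were lower in sham than in WT and 16.4% were higher in TAC than in sham. Without TAC replicate 2, 21.7% were called from sham to TAC in either direction. The part of these cell types in the Npr3 result was not tested.

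Npr1, the receptor of the peptides that Nppa and Nppb encode, had 22.3 to 31.1 CPM in WT, 24.1 to 28.5 in sham, 25.4, 26.5 and 28.4 in TAC, and 19.1 to 23.1 in Shunt. All 5 Shunt libraries lay below the lowest sham and the lowest TAC library. Means were 26.1 ± 3.69, 25.3 ± 1.78, 26.8 ± 1.49 and 21.3 ± 1.60 CPM in the same order. Sham against WT gave -0.04 (95% interval -0.22 to 0.14, adjusted p = 0.761) and TAC against sham 0.08 (-0.13 to 0.29, adjusted p = 0.582). Shunt against sham was -0.25 (-0.43 to -0.07) with an unadjusted p of 0.0102 and an adjusted p of 0.213. Npr1 was lower in Shunt than in WT (-0.29, SE 0.09, adjusted p = 0.0154) and than in TAC (-0.33, SE 0.10, adjusted p = 0.0202). The first call ended without WT replicate 4 (adjusted p = 0.0535), and the other without TAC replicate 2 (adjusted p = 0.0543) or TAC replicate 4 (adjusted p = 0.0741).

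Npr2, the receptor of the C-type peptide, was not called in any of the 6 comparisons by edgeR or DESeq2, and in none was the unadjusted p under 0.05. It lay between 68.0 and 83.8 CPM in WT, 64.7 and 76.6 in sham, 69.9 and 76.2 in TAC, and 67.2 and 72.3 in Shunt, and these ranges overlapped. The widest difference was Shunt against WT at -0.12 (95% interval -0.26 to 0.01, adjusted p = 0.148), which was called among libraries with Dbp above Arntl (-0.23, adjusted p = 0.0258) and with a clock covariate (-0.20, adjusted p = 0.014). The interval for TAC against sham was -0.10 to 0.20 and that for Shunt against sham -0.16 to 0.10. Per kilobase of exon, mean Npr2 was 14.9 to 16.2 CPM per kb over the 4 groups, above mean Npr1 at 4.46 to 5.6 and mean Npr3 at 1.26 to 3.85. The ratio of Npr3 to Npr1 CPM was 0.999 to 1.73 in WT, 0.411 to 0.703 in sham, 0.685 to 1.13 in TAC and 0.337 to 0.664 in Shunt, so WT did not overlap sham or Shunt.

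**Figure D3:**
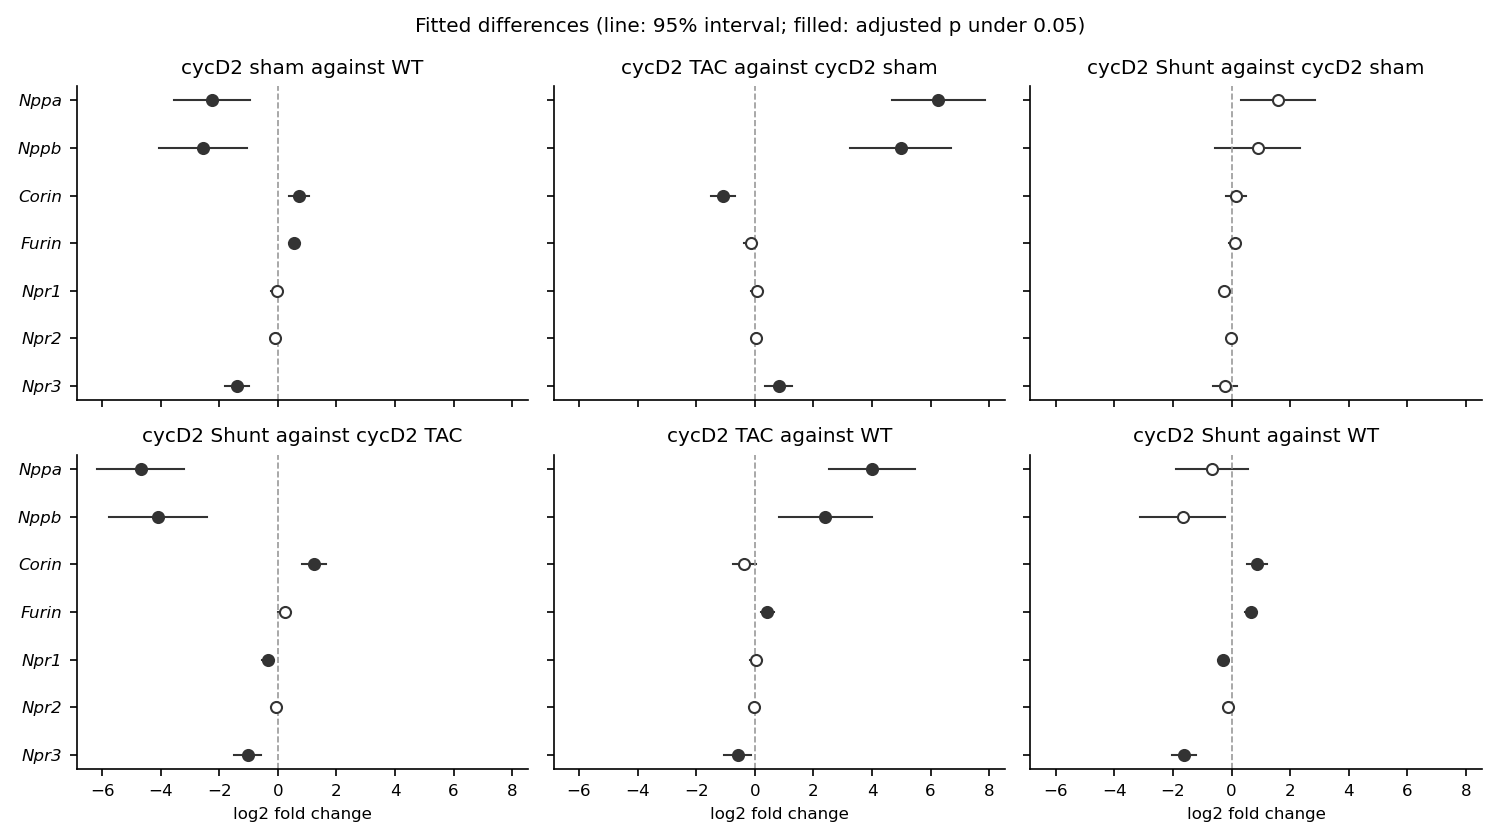
Fitted log2 fold change of the 7 tested genes in 6 comparisons, with lines for 95% intervals and filled points where the adjusted p was under 0.05. The peptides span the widest range, Npr2 has no filled point, and Shunt against sham has none.

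Between WT and sham 5 of the 7 tested members were called, 2 higher (Corin and Furin) and 3 lower (Nppa, Nppb and Npr3), where 28.4% of all genes tested were called (13.5% higher and 14.9% lower). Between sham and TAC 4 of 7 were called, 3 higher and 1 lower, against 30.9% of all genes (16.4% higher and 14.5% lower). In Shunt against sham none of the 7 was called by edgeR (2 had an unadjusted p under 0.05, and DESeq2 likewise called 0 with 2 under that level), in a comparison where 0.242% of all genes were called. Shunt against TAC called 5 of 7, 1 higher and 4 lower, against 27% of all genes (13.3% higher and 13.6% lower). TAC against WT called 4 of 7, 3 higher and 1 lower, against 34% of all genes (17.1% and 16.9%). Without TAC replicate 1 the count was 1, Nppa, against 23.3% of all genes. Shunt against WT called 4 of 7, 2 higher and 2 lower, against 32.3% of all genes (15.6% and 16.7%). Comparisons with the same control libraries are not independent of each other, and the fall of Nppa from WT to sham and its rise from sham to TAC share the sham libraries.

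Without the library labelled cycD2 TAC replicate 2, 3 of 7 members were called from sham to TAC (2 higher and 1 lower) against 21.7% of all genes. Between Shunt and TAC 4 of 7 were called against 18% of all genes, and between TAC and WT 4 of 7 against 31%. Shunt then stood below TAC by -4.40 for Nppa (adjusted p = 0.00175), -4.14 for Nppb (adjusted p = 0.0057) and -0.84 for Npr3 (adjusted p = 0.0231), and above it by 1.07 for Corin (adjusted p = 0.00256). Against WT, TAC stood higher by 3.73 for Nppa (adjusted p = 0.00174), 2.48 for Nppb (adjusted p = 0.0403) and 0.54 for Furin (adjusted p = 0.000797), and lower by -0.77 for Npr3 (adjusted p = 0.0282). With the covariate for Y-linked genes, the mean log2 level of Ddx3y, Eif2s3y, Kdm5d and Uty, 3.46% of all genes were called from sham to TAC, 12.6% between TAC and WT and 4.52% between Shunt and WT. This fit rests mainly on the 3 TAC libraries, replicate 2 among them, because no other group varied in sex by these genes. Calls lost or kept with it therefore do not separate sex from group. TAC against WT was then no longer called for Nppb (adjusted p = 0.351), Furin (adjusted p = 0.13) or Npr3 (adjusted p = 0.0922). Shunt against WT then lost the calls of Npr1 (adjusted p = 0.702) and Furin (adjusted p = 0.15), and Shunt against TAC that of Npr1 (adjusted p = 0.143). The calls of Nppa and Nppb from sham to TAC held with this covariate, at 5.65 (adjusted p = 0.00589) and 4.33 (adjusted p = 0.0352).

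Genes around the peptides were read from 6 lists by role, and their counts stand beside the shares of all genes called. From WT to sham these were 13.5% higher and 14.9% lower (28.4% together). They were 16.4% and 14.5% from sham to TAC (30.9%), and 13.3% and 13.6% in Shunt against TAC (27%). Without TAC replicate 2, 21.7% were called from sham to TAC and 18% in Shunt against TAC. The counts for cyclic GMP sources, for kinases and targets and for clearance enzymes rest on 7 to 10 genes each and are not read as differing from these shares. Among 7 tested stress-associated genes of heart muscle, which are known to respond to load as Nppa does, all 7 rose from sham to TAC, with a median log2 difference of 1.91 against 0.0067 over all genes, and all 7 did so without TAC replicate 2. The list was chosen by this known response and with earlier results of these data known, so its counts and median are a description. Xirp2, a protein of the intercalated disc, rose from 648 to 2430 CPM (log2 1.91, SE 0.17). Rcan1, a target and inhibitor of calcineurin, rose from 89.0 to 586 CPM (log2 2.72, SE 0.32), and Ankrd1, a stretch-responsive cofactor, from 1177 to 6066 CPM (log2 2.37, SE 0.30). All 7 were lower in Shunt than in TAC, with a median of -1.90, and 6 of 7 without TAC replicate 2. Between WT and sham Myh7 rose by 0.47 and Acta1 fell by 3.26, Ankrd1 by 0.91 and Rcan1 by 1.03, so 3 of these genes fell in the comparison in which Nppa and Nppb fell. Ankrd1 was named here after its values were seen.

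Transcription factors known to act on Nppa or Nppb differed between the comparisons. From WT to sham 7 of 18 rose and none fell (median log2 0.19, against -0.01 over all genes), among them Tbx5 by 0.90 (SE 0.13, from 28.7 to 53.5 CPM), a T-box activator of Nppa, Gata6 by 0.66 (SE 0.12), and Mef2d by 0.26 (SE 0.06). None of the 18 was lower there even at an unadjusted p under 0.05, and DESeq2 called 8 higher and 0 lower. Between sham and TAC 1 rose and 7 fell (median -0.23), where 16.4% of all genes rose and 14.5% fell. Without TAC replicate 2 these counts were 1 and 4, where 21.7% of all genes were called in either direction. Tbx5 fell by 0.90 (SE 0.15), back to 28.6 CPM, Mef2a by 0.63 (SE 0.10) and Zfpm2, a cofactor of GATA4, by 0.51 (SE 0.09). The 1 that rose was Srf, serum response factor, by 0.52 (SE 0.15), named after its value was seen. From TAC to Shunt 5 rose and 2 fell (4 and 2 without TAC replicate 2), with Mef2a higher by 0.75, Tbx5 by 0.91 and Zfpm2 by 0.49.

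Cyclic GMP is the messenger that Npr1 and Npr2 make, and phosphodiesterases break it down. Between sham and TAC 5 of 9 phosphodiesterases rose and 1 fell (median log2 0.58), or 2 and 1 without TAC replicate 2 (median 0.37). Pde5a, which is specific for cyclic GMP, rose by 0.56 (SE 0.14, from 7.10 to 10.4 CPM), Pde1b rose by 0.75 (SE 0.24), a call that ended without TAC replicate 2 (0.65, adjusted p = 0.0926), and Pde1c fell by 0.65 (SE 0.19). Pde9a, which also acts on cyclic GMP, was lower by 0.64 in Shunt than in TAC (SE 0.22) and was the 1 gene of the list called there, and not without TAC replicate 2 (-0.51, adjusted p = 0.178), when 1 other was higher and 1 lower. Between WT and sham 2 of 9 fell, Pde10a by 0.66 and Pde5a by 0.34, and edgeR and DESeq2 called 0 higher (1 had an unadjusted p under 0.05). Among 7 other sources of cyclic GMP, 1 rose and 2 fell from WT to sham, and 2 rose and 1 fell from sham to TAC, or 1 and 0 without TAC replicate 2. Gucy1b1, a subunit of the nitric oxide receptor, fell by 0.37 (SE 0.08) and then rose by 0.38 (SE 0.10), and Nos3, the endothelial nitric oxide synthase, rose by 0.35 (SE 0.12) in TAC, a call that also ended without that library (0.21, adjusted p = 0.273). Between TAC and Shunt edgeR and DESeq2 called 0 of the 7, and 2 were lower at an unadjusted p under 0.05.

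Of 10 kinases and targets of cyclic GMP signalling, 2 rose and 2 fell from WT to sham, and 3 rose and 2 fell from sham to TAC, or 2 and 2 without TAC replicate 2. Rgs2, a regulator that is activated by the cyclic GMP kinase, rose by 0.96 (SE 0.20, from 34.9 to 68.0 CPM) and then fell by 1.15 (SE 0.24). Pln, phospholamban, the brake on the calcium pump, fell by 0.62 (SE 0.09) in TAC, and Vasp, a kinase substrate of the cytoskeleton, rose by 0.55 (SE 0.12). From TAC to Shunt Rgs2 was higher by 1.43 and Pln by 0.65, and Vasp was lower by 0.51. Among 8 enzymes of peptide clearance and processing, 1 rose and 2 fell in either step. Ide, an insulin-degrading protease that also cleaves natriuretic peptides, rose by 0.35 (SE 0.08) in sham and fell by 0.46 (SE 0.09) in TAC, the same directions as Corin. Mme, neprilysin, the protease that degrades natriuretic peptides, fell by 0.45 (SE 0.12) from sham to TAC, from 31.9 to 23.3 CPM, and the convertase Pcsk5 rose by 0.99 (SE 0.24). In Shunt against sham edgeR called 0 of the 59 tested genes of the 6 lists. Of these, 6 were higher and 2 lower at an unadjusted p under 0.05, and DESeq2 called 1, a phosphodiesterase.

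**Figure D4:**
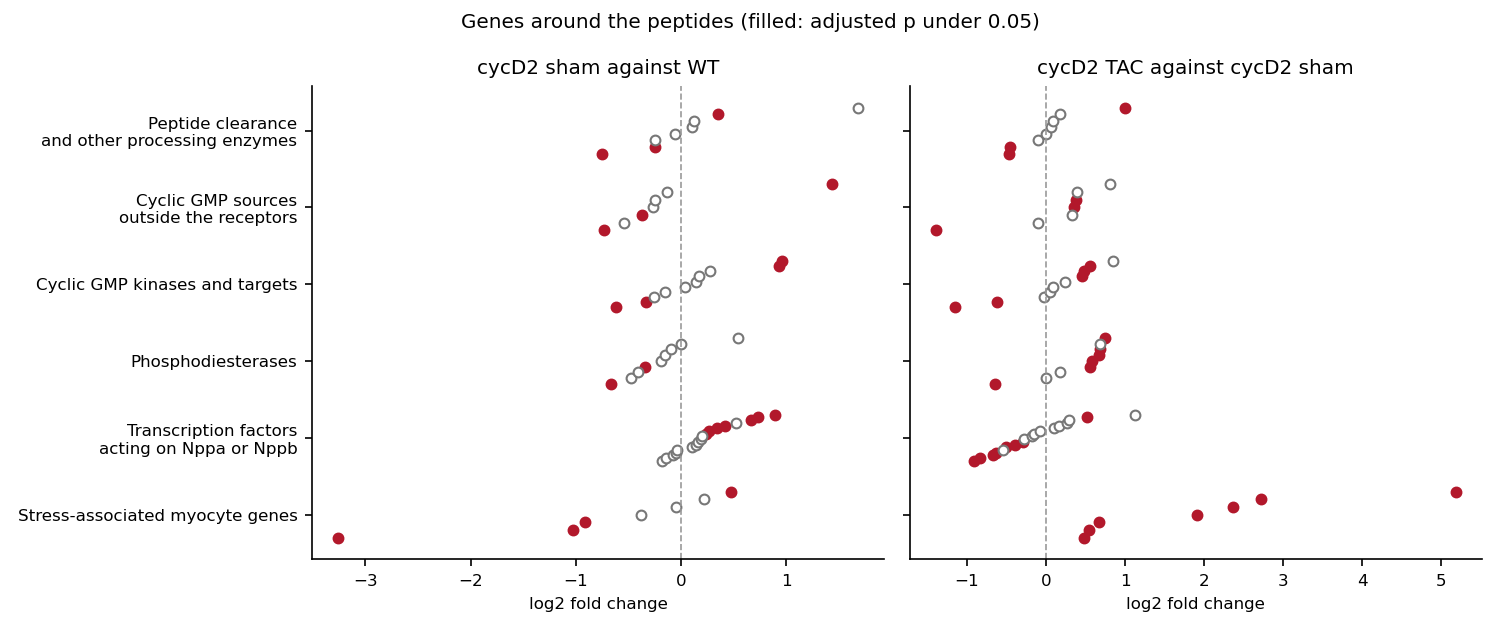
Log2 fold change of each tested gene of the 6 lists in cycD2 sham against WT (left) and cycD2 TAC against cycD2 sham (right), filled where the adjusted p was under 0.05, with points of a list spread vertically by rank. All 7 stress-associated genes lie above 0 on the right, where 7 of 18 transcription factors were called lower, and 7 of 18 were called higher on the left.

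Genes within 100 kb of Nppa and Nppb on chromosome 4 included Mfn2, Plod1, 2510039O18Rik, Gm13054, Clcn6, Agtrap and Draxin. In TAC against sham Plod1 rose by 0.45 (SE 0.09). The antisense gene Gm13054 rose by 5.70, or by 5.79 without TAC replicate 2, but its reads cannot be told apart from those of Nppa where they overlap. In sham against WT Agtrap fell by 0.89 (SE 0.11) and 2510039O18Rik by 0.27 (SE 0.08), while Mfn2 rose by 0.30 (SE 0.10). Clcn6, which lies next to Nppa, and Draxin were called in neither.

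The genes whose log2 levels followed each member most closely over the 18 libraries, by Pearson r, are given as a description, since the libraries share groups and TAC stands apart. For Nppa they were Rrp12 (0.974), Cavin3 (0.961) and Klhl40 (0.960), and for Nppb Pdlim5 (0.982), Bag2 (0.966) and Dync1li1 (0.962). Corin was followed by Gm16316 (0.963), Rexo1 (0.958) and Ppp6r3 (0.949), and Furin by Epc1 (0.933), Pcna (0.929) and Ubn1 (0.926). Npr3 was followed by S100a1 (0.934), Trappc4 (0.923) and Mocos (0.921). The values were lower for the genes closest to Npr1, C130074G19Rik (0.850), Kazn (0.840) and Pltp (0.839), and to Npr2, Myh14 (0.865), Prpsap1 (0.847) and Sirt2 (0.824).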

How the data were processed

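The authors deposited raw read counts per Ensembl gene, 1 table per library, without normalization. The submitters' processing notes name STAR 2.3.0e, HTSeq 0.6.1p1, DESeq2 1.8 and the builds GRCm38 and mm10. The annotation release and strand setting are not given in the sources used here, and per the labels' protocols the kit was TruSeq RNA v2, which does not mark strand.

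Symbols came from GENCODE M21 (36602 of 38355 identifiers matched), and the summary lines of the count tables, 47.6% to 59.1% of all reads listed, were left out. Genes were filtered (filterByExpr, minimum count 10, 14876 kept), scaled by TMM and tested with edgeR 4.0.16 in R 4.3.3, with 1 mean per group over all 18 libraries, robust estimation, a quasi-likelihood F-test and Benjamini-Hochberg adjustment within each of 6 comparisons. The fit was tested on simulated data. Intervals are 95% intervals from the SE.

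Members and lists were chosen with earlier results of these data known. The text names the 8 members, up to 3 called genes by smallest p per list and comparison, tested neighbours and the 3 genes closest to each member. Other list genes were named after their values were seen, and some items the rule covers are not reported here. Deviations of same-numbered TAC and sham libraries had r = 0.129, 0.151 and 0.157, each over the limit of 0.1, and in every other comparison at least 1 pair was under that limit. Single pairs there had higher r, as 0.303 between sham and WT and 0.318 between Shunt and sham. Differently numbered libraries were not compared, so this check cannot show that the numbers mark pairs. Alternatives were DESeq2 1.42.0, another scaling, no filter, a replicate block, groups fitted alone, covariates (Y-linked genes, Myl7, clock), subsets of libraries and leaving out each library.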

Additional observations from a re-analysis of the deposited data

Results flagged for a closer look

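Npr1, the receptor of the atrial and B-type peptides, had 28.5 CPM in cycD2 sham replicate 2, while the other 4 sham libraries lay between 24.1 and 24.9 CPM. The gap to the nearest library was 0.816 of the whole range of the group, above the limit for 5 samples. Of the 21 sets of group values screened in this way this was the 1 that passed, and chance passes about 1 in 20.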

How the results depend on the processing

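Depth limited Nppc alone among the members, with 0 to 6 counts a library. Over 42 differences (7 genes in 6 comparisons) and 29 settings, 731 of 798 values kept direction and side of the threshold, 47 lost the call, 7 gained it and 13, all of genes that were not called, changed sign. The counts of members called moved by over 1.5 times as follows. From WT to sham the 5 calls became 3 with a Myl7 covariate, 2 among libraries with Arntl above Dbp, 2 among those with Dbp above Arntl and 3 among libraries with Myl7 under 20 CPM. The last subset and the clock covariate were chosen after seeing the data. This subset holds 1 TAC library, assumed to vary like the other groups, so counts of its comparisons with TAC are not given. The 4 calls from sham to TAC became 2 with the Y-linked covariate. The 4 calls of TAC against WT became 1 with the Y-linked covariate and 2 with the clock covariate, and lay between 1 and 4 when a library was left out. The 4 of Shunt against WT became 2 with the Y-linked covariate. The share of all genes called moved as well. It went from 28.4% to 7.71% and 12.2% in the 2 clock subsets, 23.1% with the Myl7 covariate and 22% with Myl7 under 20 CPM for WT to sham, and from 30.9% to 3.46% for sham to TAC with the Y-linked covariate. For TAC against WT the share went from 34% to 12.6% with the Y-linked covariate and 32.4% with the clock covariate. It lay between 23.3% and 31.7% when a library was left out. For Shunt against WT it went from 32.3% to 4.52% with the Y-linked covariate. Subsets hold fewer libraries, and the cause of the other changes was not tested.

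The differences that changed sign were small, except that of Nppb in Shunt against sham. In sham against WT Npr1 was 0.134 with Arntl above Dbp and -0.0929 to 0.0445 without 1 library. With Myl7 under 20 CPM, TAC against sham gave -0.0837 for Npr2 and 0.15 for Furin, Shunt against sham -0.00344 for Corin and TAC against WT -0.0437 for Npr1. With the Y-linked covariate, Shunt against sham gave -0.0771 for Nppb, which was 0.892 in the main fit, and 0.00701 for Npr2. TAC against WT gave -0.0138 to 0.117 for Npr1 without 1 library, and for Npr2 0.0423 with Arntl above Dbp and 0.028 with the clock covariate. Among libraries with Myl7 under 20 CPM the fall from WT to sham was -2.39 for Nppa (edgeR, adjusted p = 0.059) and -2.48 for Nppb (adjusted p = 0.0937), and the rise of Npr3 from sham to TAC 0.65 (adjusted p = 0.145).

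With the replicate number as a block, no call of a member from sham to TAC changed. In this comparison alone every same-numbered pair was over the limit of 0.1. In the other comparisons the block ended the call of Npr1 between Shunt and TAC (-0.31, adjusted p = 0.0542) and of Npr3 between TAC and WT (-0.59, adjusted p = 0.0819). The block called Nppb between Shunt and WT (-2.03, adjusted p = 0.0122), which DESeq2 also called (adjusted p = 0.0358).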

Other observations

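In the Shunt libraries Corin and Nppa lay in exactly opposite orders. Replicates 3, 4, 2, 5 and 1 had 296, 266, 208, 190 and 156 CPM of Corin, the protease that activates the atrial peptide, and Nppa was 25.6, 45.6, 53.5, 222 and 330 CPM in the same libraries. The 3 TAC libraries had the same opposite order, with 120, 94.1 and 71.9 CPM of Corin in replicates 4, 1 and 2 and 2042, 3681 and 4686 CPM of Nppa. The WT and sham libraries were not in opposite order. WT replicate 1 had 128 CPM of Corin with 347 CPM of Nppa, and WT replicate 2 had 109 CPM with 129 CPM. Sham replicate 1 had the lowest Nppa of its group (36.5 CPM) and 210 CPM of Corin, below the 244 CPM of sham replicate 4. This order was noticed after the values were seen, the groups are small, and no test was made of it. The opposite order in Shunt was not particular to Nppa. Nppb was 8.08, 16.7, 34.8, 80.0 and 138 CPM in Shunt replicates 3, 4, 2, 5 and 1, the same order as Nppa. In TAC Nppb did not follow Nppa, since its highest library was replicate 1 and that of Nppa was replicate 2.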
